A study of Mus musculus with 9 samples.

Results

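The genes described here encode the proteins that turn liquid blood into a clot. There are 10 of them: prothrombin (F2), factors V, VII, IX, X, XI and XII (F5, F7, F9, F10, F11 and F12) and the 3 chains of fibrinogen (Fga, Fgb and Fgg). They were chosen by gene symbol, as the fibrinogen chains and the liver-made factors of the cascade, from 52163 gene symbols in the tables of 9 mouse tumors. Earlier results of these data were known when the choice was made. All 10 were found in every tumor, and all 10 passed the filter on low values in each comparison (3 or more of the 6 tumors compared at an FPKM of 1 or above). FPKM is the number of sequenced fragments scaled to the length of the transcript and to all mapped fragments of the library.

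The tumors came from Hepa1-6, a mouse hepatoma cell line. Pieces of subcutaneous Hepa1-6 tumors were implanted into the left liver lobe of male C57BL/6 mice, which were 6 to 8 weeks old when purchased. From day 10 to day 26 the mice received 5 intraperitoneal injections, 4 days apart, of PBS or of anti-PD-1 antibody, which blocks the checkpoint receptor PD-1 of T cells, and tumors were taken the day after. The groups were 3 PBS-treated tumors, 3 anti-PD-1 antibody-nonresponsive tumors and 3 anti-PD-1 antibody-responsive tumors, 1 mouse each. Responsive tumors were the smallest of the antibody-treated tumors and nonresponsive tumors the largest, with the intermediate ones left out, so response, tumor size and whatever goes with size cannot be told apart. Surrounding tissue was removed before the whole tumor was frozen, and the libraries hold RNA of tumor cells and of all host cells in the specimen.

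Clotting runs as a cascade in which 1 protease cuts and activates the next. Factor VII, bound to tissue factor at a site of injury, starts the extrinsic pathway. Factor XII, factor XI and factor IX act in turn in the intrinsic pathway. Both converge on factor X, which with its cofactor factor V cleaves prothrombin to thrombin, and thrombin cuts fibrinogen so that it polymerizes to fibrin. Hepatocytes make nearly all of these proteins and secrete them into the blood. F2, F7, F9 and F10 depend on vitamin K for a modification that lets them bind membranes, and fibrinogen is an acute-phase protein whose genes respond to interleukin-6.

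An FPKM of 1 or above was listed for 12533 to 13328 named entries in a tumor. The tables give no counts, so the depth of a library is known only relative to another, at 0.935 to 1.07 times that of PBS tumor 1 as read from the steps of the lowest FPKM values. PBS tumor 1 stood apart. Its 15 hepatocyte markers (albumin and 14 others) summed to 356 FPKM, against 2285 and 3291 FPKM in the other PBS tumors. The same sum was 2089 to 7491 FPKM in nonresponsive and 6959 to 14423 FPKM in responsive tumors. All tumors expressed the hepatoma marker Afp except for very low levels in nonresponsive tumor 1 (0.321 FPKM) and responsive tumor 1 (0.646 FPKM), against 4.40 to 56.5 FPKM in the other 7. These libraries are bulk RNA, in which fewer cells of a type and less RNA per cell cannot be told apart.

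The fibrinogen chains were the highest of the 10 genes in every group. Fga, the alpha chain, measured 36.8, 230.0 and 414 FPKM in PBS tumors 1 to 3, 714, 394 and 272 FPKM in nonresponsive tumors 1 to 3, and 1281, 551 and 1769.5 FPKM in responsive tumors 1 to 3. Fgb, the beta chain, measured 17.9, 107 and 303 FPKM in the PBS tumors, 621, 186 and 265 FPKM in the nonresponsive tumors, and 1145, 470.0 and 674 FPKM in the responsive tumors. Fgg, the gamma chain, measured 43.3, 243 and 465 FPKM, then 776, 447 and 275 FPKM, then 1384, 598 and 1769.5 FPKM in the same order. In all 3 genes PBS tumor 1 was the lowest of the 9 tumors, nonresponsive tumor 1 was the highest outside the responsive group, and responsive tumor 2 lay below it, so the antibody-treated groups overlapped. The 1769.5 FPKM of responsive tumor 3 belongs to Fga and Fgg together, because the authors' assembly merged these neighbouring genes into 1 entry in that tumor and kept them apart in the other 8. Summed in every tumor, Fga and Fgg together gave 80.1, 473 and 879 FPKM in PBS, 1489.6, 841 and 547 FPKM in nonresponsive tumors, with 2666, 1149.5 and 1769.5 FPKM in responsive ones.

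**Figure D1:**
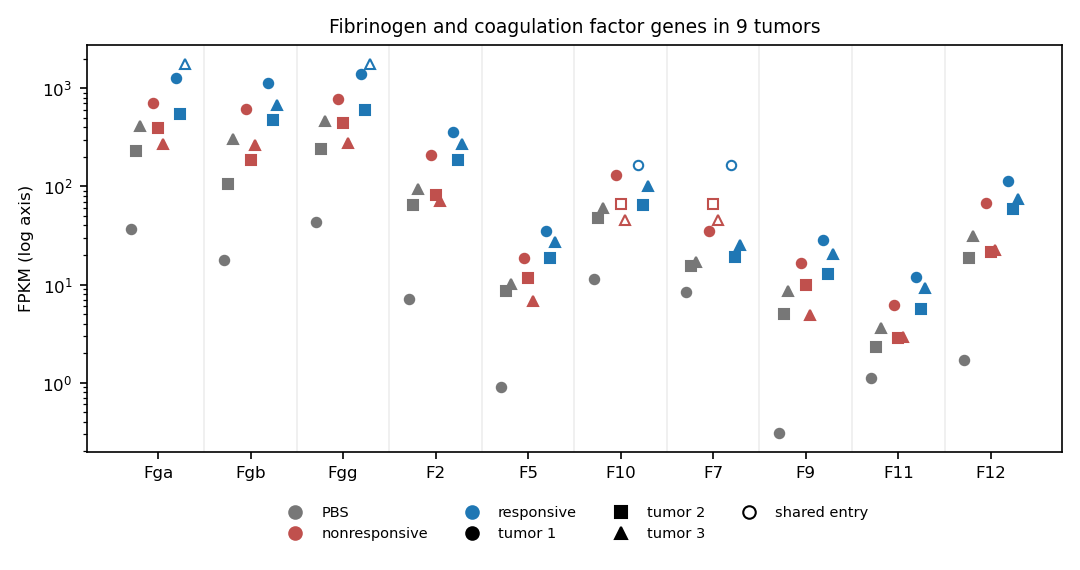
FPKM on a log axis (y) of the 10 genes (x) in 9 tumors, with color for the group, symbol for the tumor number and open symbols where the entry is shared with another of the 10 genes. The single low circle of each gene is PBS tumor 1, the responsive tumors lie above all PBS tumors in all 10 genes, and responsive and nonresponsive tumors overlap in all genes but F5.

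The 3 chains assemble in equal numbers in the fibrinogen molecule. Fgg stood at 1.01 to 1.18 times Fga in the 8 tumors where both had an entry of their own. Fgb relative to the mean of Fga and Fgg fell into separate ranges, 0.442 to 0.452 in 3 tumors (PBS tumors 1 and 2 and nonresponsive tumor 2) and 0.689 to 0.967 in the other 6. The Fgb entry carried the Ensembl identifier in the 3 and an identifier made by the assembly in the 6. Of the 90 entries of the 10 genes 11 had an Ensembl identifier and 79 an assembled one, and the part of the assembly in the Fgb values was not tested.

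The promoters of the fibrinogen chains are shown because all 3 genes lie side by side on chromosome 3. The RefSeq table for GRCm38.p6 matched all 10 genes, and each window runs from 250 bases before to 50 bases after the transcription start, written 5′ to 3′ on the gene's strand. Capitals mark letters searched on both strands, a match on the other strand being printed as its reverse complement: the hepatocyte nuclear factor 4 (HNF4) site CAAAGGTCA, the C/EBP site TTGCNNAA, with N for any base, and the interleukin-6 response element CTGGGAA. No match overlapped another in the promoters printed. The windows are chr3:83025903-83026202 on the plus strand for Fga, chr3:83049814-83050113 on the minus strand for Fgb and chr3:83007474-83007773 on the plus strand for Fgg.
Fga: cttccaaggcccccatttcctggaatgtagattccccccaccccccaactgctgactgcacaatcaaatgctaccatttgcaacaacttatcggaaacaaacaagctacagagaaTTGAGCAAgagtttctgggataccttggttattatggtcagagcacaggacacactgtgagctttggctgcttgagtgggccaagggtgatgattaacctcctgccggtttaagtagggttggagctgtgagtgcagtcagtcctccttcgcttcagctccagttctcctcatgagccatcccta
Fgb: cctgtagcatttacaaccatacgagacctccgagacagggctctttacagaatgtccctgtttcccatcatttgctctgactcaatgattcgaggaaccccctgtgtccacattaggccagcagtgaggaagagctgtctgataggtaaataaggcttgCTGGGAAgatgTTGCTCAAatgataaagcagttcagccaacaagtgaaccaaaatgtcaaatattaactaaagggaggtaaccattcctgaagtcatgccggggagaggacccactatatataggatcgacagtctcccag
Fgg: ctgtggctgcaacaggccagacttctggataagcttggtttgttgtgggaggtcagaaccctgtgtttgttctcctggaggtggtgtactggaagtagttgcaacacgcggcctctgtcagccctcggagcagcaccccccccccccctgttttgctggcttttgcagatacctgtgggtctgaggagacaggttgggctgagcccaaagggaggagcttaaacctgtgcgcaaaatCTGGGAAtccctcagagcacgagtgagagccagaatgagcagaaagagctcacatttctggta

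Fga held a C/EBP site 135 bases before its start. Fgb held a C/EBP site 80 bases before its start and the interleukin-6 element at 91 bases. Fgg held the interleukin-6 element alone, 13 bases before its start.

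The common pathway comprises F2, F5 and F10. F2, whose product prothrombin is the precursor of thrombin, measured 7.13, 65.1 and 94.2 FPKM in PBS tumors, 211, 82.0 and 70.5 FPKM in nonresponsive tumors, and 362, 185 and 268 FPKM in responsive tumors. Nonresponsive tumor 1 lay above responsive tumor 2 and the other nonresponsive tumors lay among the PBS values. F5, the cofactor of activated factor X, measured 0.902, 8.58 and 10.03 FPKM, then 18.4, 11.7 and 6.78 FPKM, then 35.3, 18.6 and 26.97 FPKM. It was the only 1 of the 10 genes in which every responsive tumor lay above every nonresponsive tumor, by 18.6 against 18.4 FPKM at the nearest point. F10, the protease that cleaves prothrombin, was read from an entry of its own in 6 tumors, at 11.5, 47.6 and 60.4 FPKM in PBS tumors, 131 FPKM in nonresponsive tumor 1 and 63.9 and 101 FPKM in responsive tumors 2 and 3.

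F7 and F10 are neighbours on chromosome 8 and shared 1 entry in nonresponsive tumors 2 and 3 and in responsive tumor 1, at 66.8, 45.0 and 166 FPKM, which both genes then carry. Where F7 had its own entry it measured 8.31, 15.4 and 16.9 FPKM in PBS tumors, 35.5 FPKM in nonresponsive tumor 1, and 19.1 and 25.0 FPKM in responsive tumors 2 and 3. Values of F7 with and without a shared entry are therefore not the same quantity, and only the sum of both genes can be set side by side in all 9 tumors. F7 and F10 together gave 19.8, 63.0 and 77.3 FPKM in PBS tumors, 167, 66.8 and 45.0 FPKM in nonresponsive tumors, and 166, 83.1 and 126 FPKM in responsive tumors. The responsive tumors all lay above the PBS tumors and within the range of the nonresponsive tumors.

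The intrinsic and contact factors were among the lower genes. F9, the vitamin K-dependent protease lacking in hemophilia B, measured 0.304, 5.05 and 8.52 FPKM in PBS tumors, 16.7, 9.92 and 4.94 FPKM in nonresponsive tumors, and 28.7, 12.7 and 20.7 FPKM in responsive tumors. F11, which activates factor IX, measured 1.11, 2.32 and 3.60 FPKM, then 6.12, 2.88 and 2.92 FPKM, then 12.1, 5.58 and 9.19 FPKM. F12, which starts the contact pathway, measured 1.69, 18.6 and 31.3 FPKM, then 68.5, 21.5 and 22.3 FPKM, then 113, 59.0 and 75.1 FPKM. In each of the 3 genes the responsive tumors lay above all PBS tumors, and responsive tumor 2 lay below nonresponsive tumor 1.

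The promoters of F7 and F9 are shown because they hold the HNF4 matches. They lie at chr8:13025784-13026083 on the plus strand (F7) and chrX:59999214-59999513 on the plus strand (F9), in GRCm38.p6.
F7: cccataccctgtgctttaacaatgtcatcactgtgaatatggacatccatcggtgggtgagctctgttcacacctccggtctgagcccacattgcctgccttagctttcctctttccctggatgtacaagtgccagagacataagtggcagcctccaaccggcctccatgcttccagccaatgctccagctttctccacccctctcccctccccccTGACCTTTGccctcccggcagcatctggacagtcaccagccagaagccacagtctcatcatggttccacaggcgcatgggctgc
F9: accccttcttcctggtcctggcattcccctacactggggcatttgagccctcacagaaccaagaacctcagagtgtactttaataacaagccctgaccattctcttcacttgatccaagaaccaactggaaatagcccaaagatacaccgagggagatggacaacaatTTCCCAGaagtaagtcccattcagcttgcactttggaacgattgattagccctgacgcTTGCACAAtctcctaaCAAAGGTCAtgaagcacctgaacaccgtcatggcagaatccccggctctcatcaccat

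The HNF4 site began 34 bases before the start of F7 and 8 bases before that of F9. Over the 10 promoters the HNF4 site occurred in 2, against 0.478% of 32851 mouse promoters of the same length. The C/EBP site occurred in 4 (F9, F11, Fga and Fgb), against 10.8%, the interleukin-6 element in 3 (F9, Fgb and Fgg), against 11.1%, and the letters TATAAA in none, against 13.6%. The motifs were picked with these promoters in view, and a match is a description of the letters, not evidence of a bound factor.

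By group mean the levels ran in the same order in PBS, nonresponsive and responsive tumors for Fgg, Fga, Fgb, F2 and F10, from the highest down, and for F5, F9 and F11 at the low end. Mean Fgg was 250.3 ± 211 FPKM in PBS, 499 ± 254 FPKM in nonresponsive and 1251 ± 597 FPKM in responsive tumors (SD, n = 3 each), and mean F11 was 2.35 ± 1.25, 3.97 ± 1.86 and 8.95 ± 3.25 FPKM. Neighbours in this order differed by less than their SD in several places, as with Fga (1201 ± 613 FPKM) and Fgg in responsive tumors. These 2 means both include the merged entry of responsive tumor 3 in full, so they are not separate measurements. Joined, Fga and Fgg had a mean of 1861.5 ± 762 FPKM in responsive tumors. The F10 means of nonresponsive and responsive tumors likewise include entries shared with F7. The assembler's own interval around an FPKM reached down to 0 for 3 of the 90 values, F5 and F12 in responsive tumor 1 and Fgb in responsive tumor 3.

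The comparison of responsive with nonresponsive tumors asks how tumors that stayed small under anti-PD-1 antibody differed from those that grew large. On the log2(FPKM + 1) scale 9 of the 10 genes had the higher mean in responsive tumors, and none passed an adjusted p of 0.05 (limma, Benjamini-Hochberg adjustment over 13845 genes). Without adjustment 4 of 10 had a p under 0.05, all higher in responsive tumors, against 4.05% of all genes tested that were higher at that p, 1.44% that were lower and 0.116% that passed with adjustment. These 4 were F2, F5, F11 and F12. F2 differed by 1.28 ± 0.50 (log2, SE; limma adjusted p = 0.885), F12 by 1.28 ± 0.52 and F5 by 1.12 ± 0.41, each at the same adjusted p. F11 differed by 1.00 ± 0.37 on this scale. The fibrinogen chains differed by 1.34 ± 0.58 for Fga, 1.19 ± 0.56 for Fgb and 1.31 ± 0.57 for Fgg, with wider spread and unadjusted limma p values of 0.0594 to 0.0806. In responsive tumor 3 Fga and Fgg both carry their merged entry, so their values hold another quantity there. For Fgb nonresponsive tumor 2 carries the Ensembl entry and all responsive tumors an assembled one, so its value may not be the same quantity in both groups. Fga and Fgg together differed by 0.99 ± 0.50.

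F9 differed by 0.98 ± 0.49 and F10 by 0.47 ± 0.52 between responsive and nonresponsive tumors. F7 stood at -0.13 ± 0.83, the only negative value, and F7 and F10 together at 0.59 ± 0.52. Only F5, 1 of 10, had groups that did not overlap, against 5.78% of all genes with every responsive tumor on the higher side. With upper-quartile scaling 0 of 10 did, against 786 of 13859 genes on the higher side. Scaling to the sum of named entries also gave 0, against 419 of 13846 genes. The exact permutation test of F5 alone gave p = 0.1 (two-sided), the smallest that 3 against 3 tumors allow. The median over the 10 genes was 1.16, with a median over all genes tested of -0.07. With genes that share an entry joined, the median over 8 rows was 1.065. This count of 4 changed when single tumors were left out, as did the count over all genes. It was 8 without nonresponsive tumor 1, where 969 of 13522 genes were higher at that p, against 561 of 13845 with all tumors. It was 0 without nonresponsive tumor 2, nonresponsive tumor 3 or responsive tumor 3 (210, 283 and 218 genes higher). Without responsive tumor 1 it was 1 (208 genes higher). It was also 0 when tumors were scaled to the same sum of named entries (301 genes higher) and 2 with upper-quartile scaling (507 genes higher).

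**Figure D2:**
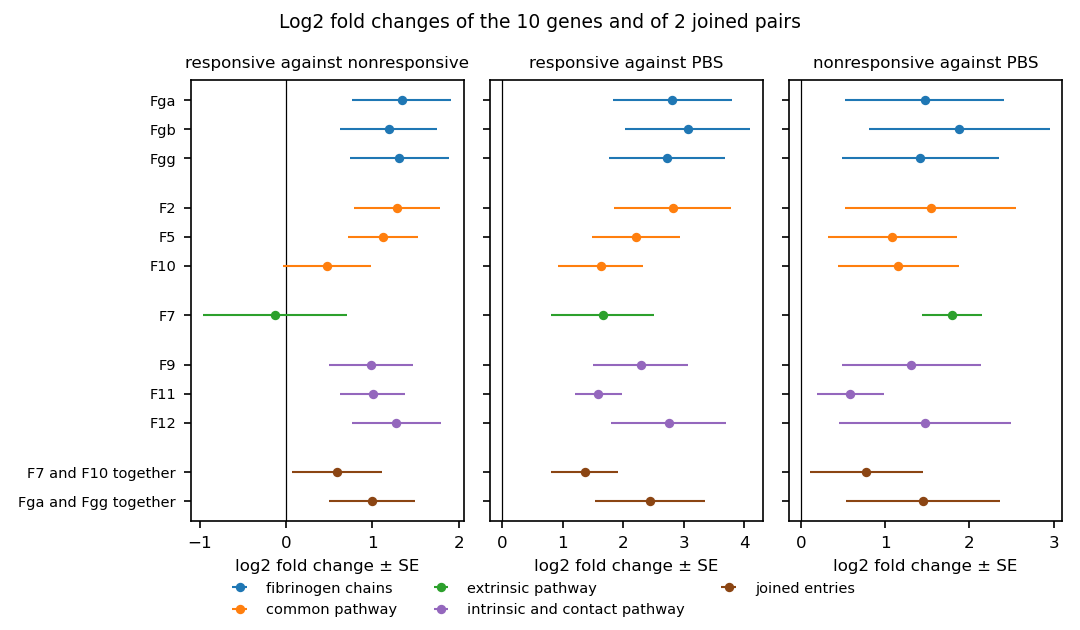
Log2 fold change of log2(FPKM + 1) with its SE (x) for the 10 genes and the 2 joined pairs (y, colored by role) in the 3 comparisons of groups. All values of responsive against PBS lie right of 0, and F7 is the single gene left of 0 in responsive against nonresponsive tumors, where its joined value with F10 is 0.59.

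Against PBS the responsive tumors differed more. All 10 genes were higher in every responsive tumor than in any PBS tumor, against 11.6% of 13852 genes tested, and 8 of 10 had an unadjusted p under 0.05, against 8.47% of genes that were higher and 8.75% that were lower. None passed with adjustment (0.231% of genes did), the adjusted p values lying between 0.281 and 0.328 (limma). F2 differed by 2.82 ± 0.97, which is 7.08-fold on the FPKM + 1 scale, Fga by 2.81 ± 0.99, F12 by 2.75 ± 0.95 and Fgg by 2.73 ± 0.96. In responsive tumor 3 Fga and Fgg both carry their merged entry, so their values hold another quantity there. Fgb stood at 3.07 ± 1.04, but PBS tumors 1 and 2 carry the Ensembl entry of Fgb and all responsive tumors an assembled one, so that its value may not be the same quantity in both groups. F9 differed by 2.29 ± 0.79, F5 by 2.21 ± 0.73 and F11 by 1.59 ± 0.39.

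F7 differed by 1.67 ± 0.85 and F10 by 1.63 ± 0.70 in responsive against PBS tumors, with 1.37 ± 0.56 for both together and 2.44 ± 0.91 for Fga and Fgg together. The median over the 10 genes was 2.51, with -0.11 over all genes. With genes that share an entry joined, the median over 8 rows was 2.37. PBS tumor 1 carried part of this difference. Without it the median was 1.56, and all PBS tumors left were still below all responsive tumors in the 10 genes, as in 1765 of 13584 genes tested. The count of 8 dropped to 1 without responsive tumor 1 and to 1 without responsive tumor 3. Over all genes 553 and 641 were higher at that p in these 2 settings, against 1173 with all tumors.

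Nonresponsive tumors were also set against PBS tumors, to compare large tumors under antibody with untreated ones. All 10 had the higher mean in nonresponsive tumors, with a median of 1.44 against -0.06 over all genes, and without PBS tumor 1 the median was 0.45. Fgb differed by 1.88 ± 1.07, F2 by 1.54 ± 1.02 and F11 by 0.58 ± 0.40, and 9 of the 10 genes overlapped between the groups. For Fgb PBS tumors 1 and 2 and nonresponsive tumor 2 carry the Ensembl entry and the others an assembled one. Its value may therefore not be the same quantity in both groups. F7, at 1.79 ± 0.36, had the single unadjusted p under 0.05 and the single pair of groups that did not overlap. The backgrounds were 1.51% of 13806 genes higher at that p, 1.71% lower, 3.23% without overlap on the higher side and 0.0797% with an adjusted p under 0.05, which none of the 10 reached (limma adjusted p = 0.718 for each). Because nonresponsive tumors 2 and 3 carry the entry shared with F10, the value of F7 holds another quantity in those tumors than in PBS tumors. F7 and F10 together differed by 0.78 ± 0.67 (limma adjusted p = 0.701). The 3 comparisons share tumors and are not independent of each other.

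Albumin mRNA (Alb), an abundant hepatocyte transcript, moved with the clotting genes from tumor to tumor. Alb measured 173, 835 and 1259 FPKM in PBS tumors, 2678, 1490.0 and 885 FPKM in nonresponsive tumors, and 5041, 2576 and 4396 FPKM in responsive tumors. Divided by Alb, a comparison chosen after the values were seen, F2 ranged from 41.3 to 79.7 FPKM per 1000 FPKM of Alb over the 9 tumors, while its FPKM spanned 50.8-fold. Without PBS tumor 1 F2 spanned 5.56-fold in FPKM and 1.45-fold in the ratio. F5 ranged from 5.22 to 10.3 and Fgb from 104 to 299 on the same ratio, F9 from 1.76 to 6.77 and F11 from 1.93 to 6.43. On the ratio F11 was lower in every responsive than in every PBS tumor, at -0.75 (log2). The median over the 10 genes of the log2 difference in this ratio was -0.14 for responsive against nonresponsive tumors, 0.019 for responsive against PBS tumors and 0.12 for nonresponsive against PBS tumors.

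F7 and F10 together went the other way relative to albumin. They stood at 115, 75.5 and 61.4 FPKM per 1000 FPKM of Alb in PBS tumors, 62.2, 44.9 and 50.9 in nonresponsive tumors, and 32.9, 32.2 and 28.7 in responsive tumors. The responsive tumors lay below all others, by 0.74 on the log2 scale against nonresponsive and 1.38 against PBS tumors. Fga and Fgg together stood at 464, 566 and 698 per 1000 FPKM of Alb in PBS tumors, 556, 564 and 618 in nonresponsive tumors, and 529, 446 and 403 in responsive tumors, which lay below all nonresponsive tumors. Of 48 such ratio tests 10 reached the smallest exact permutation p of 0.1 (two-sided), and the smallest Benjamini-Hochberg adjusted value was 0.48, so none could pass. Whether the difference in FPKM belongs to hepatocyte content was not tested.

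**Figure D3:**
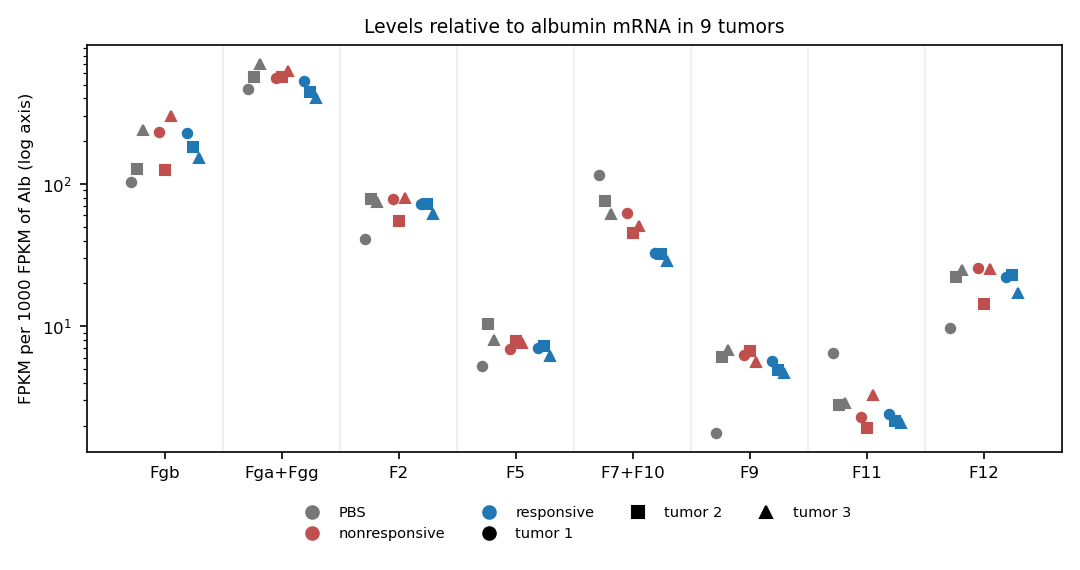
FPKM per 1000 FPKM of Alb on a log axis (y) for 6 single genes and 2 joined pairs (x) in 9 tumors, with color for the group and symbol for the tumor number. F2 stays between 41.3 and 79.7 in all tumors, and F7 and F10 together are lowest in the 3 responsive tumors, at 28.7 to 32.9.

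The 15 hepatocyte markers, Alb among them, moved with the clotting genes. All 15 had the higher mean in responsive tumors against nonresponsive and against PBS tumors, with medians of 1.45 and 2.85. In the comparison with nonresponsive tumors 8 of 15 had an unadjusted p under 0.05, where 4.05% of all genes were higher at that p. In the comparison with PBS tumors 14 of 15 did, where 8.47% of all genes were higher. Kupffer cell markers summed to 4.52 to 118 FPKM in PBS, 85.3 to 250.5 FPKM in nonresponsive and 119 to 333 FPKM in responsive tumors, and red blood cell markers to 76.1 to 458, 133 to 706 and 452 to 751 FPKM. The hepatoma and fetal liver list (Afp, Top2a, Mki67 and 5 others) summed to 115 to 189.9 FPKM in PBS, 47.6 to 287 FPKM in nonresponsive and 47.7 to 167 FPKM in responsive tumors. Its low ends were nonresponsive tumor 1 and responsive tumor 1, the tumors in which F2, F9, F12 and Fgb were highest within their groups. The platelet and megakaryocyte list, whose cells carry fibrinogen in their granules, summed to 61.5 to 256, 136 to 616 and 163 to 411 FPKM, and 0 of its 3 tested genes had a p under 0.05. Macrophage markers summed to 1339.6 to 3834, 3002 to 7989 and 2811 to 8970.1 FPKM. Markers listed at 0 were Folr2 of Kupffer cells in all PBS tumors, nonresponsive tumor 3 and responsive tumor 2, Alas2 of red blood cells in PBS tumor 1, Gp9 of platelets in PBS tumor 2 and Dlk1 of fetal liver in responsive tumor 2. The part of these cells in the clotting genes was not tested.

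The remaining lists covered endothelium, stroma and leukocytes. Liver sinusoidal endothelial markers summed to 152 to 329 FPKM in PBS, 152 to 593 FPKM in nonresponsive and 116 to 329 FPKM in responsive tumors, and vascular endothelial markers to 68.6 to 118, 74.8 to 151 and 79.9 to 121 FPKM. Fibroblast and stellate cell markers summed to 2564 to 4090.5, 2885 to 5081 and 2494 to 2761 FPKM. Neutrophil markers summed to 177 to 2462, 528 to 5151 and 411 to 3278 FPKM, and T cell markers to 60.1 to 171, 102 to 124 and 131 to 184 FPKM. The T cell sums of responsive tumors all lay above the nonresponsive ones. By gene 2 of 7 did so, Cd3d and Cd3g, against 5.78% of all genes, and 1 of 7 had an unadjusted p under 0.05, against 4.05%. Cd8a was lowest of all tumors in responsive tumor 1, at 2.46 FPKM.

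The genes whose levels followed the fibrinogen chains most closely over the 9 tumors, among 14474 genes outside the 10, were C8a, Mbl2, Itih1, Entpd5 and Gjb2, with Pearson r of 0.992 to 0.994 to the mean log2(FPKM + 1) of the 3 chains. C8a encodes a terminal complement component and Mbl2 a mannose-binding lectin, both secreted by the liver. Those closest to the 7 factor genes were Ugt2b1, Kng2, Gfra1, Gjb2 and C9, at 0.993 to 0.996. These values describe 9 tumors of 3 groups, with PBS tumor 1 far below the rest, and are no test.

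Of 10 other procoagulant genes 9 were in the tables and tested, and in responsive against nonresponsive tumors 2 rose and 1 fell at an unadjusted p under 0.05, with none at an adjusted p under 0.05 in this or any list that follows. F3, tissue factor, the cell-surface receptor of factor VII, measured 6.64, 20.9 and 20.2 FPKM in PBS, 29.6, 23.2 and 11.996 FPKM in nonresponsive and 12.7, 7.56 and 16.4 FPKM in responsive tumors. It differed by -0.74 ± 0.42 between the antibody-treated groups, which overlapped (limma adjusted p = 0.946). Per 1000 FPKM of Alb it stood at 2.52 to 3.73 in responsive tumors, below the 11.05 to 15.6 of nonresponsive and the 16.0 to 38.5 of PBS tumors. This ratio carries the difference in Alb itself, whose mean was 756, 1684 and 4004.5 FPKM in PBS, nonresponsive and responsive tumors. The FPKM of F3 overlapped between all groups, so the ratio does not show a lower F3 level. F8, the cofactor of factor IX, measured 0.321 to 1.57, 1.17 to 2.41 and 1.38 to 3.28 FPKM in the 3 groups, and Vwf, its carrier from endothelium, 3.08 to 6.39, 3.57 to 9.01 and 5.24 to 6.53 FPKM. Both overlapped between all groups.

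Kng1 and Kng2, the kininogens of the contact system, measured 203 to 442 and 40.4 to 93.1 FPKM in responsive tumors against 9.47 to 154 and 3.65 to 31.4 FPKM in PBS tumors. Kng1 differed by 2.56 ± 1.03 and Kng2 by 2.14 ± 0.77 in responsive against PBS tumors, where 4 of the 9 rose and 0 fell. Fgl2, a membrane-bound prothrombinase of macrophages and endothelium, measured 52.4, 57.2 and 40.9 FPKM in nonresponsive and 33.0, 23.5 and 37.6 FPKM in responsive tumors. It was the 1 that fell, by 0.67 ± 0.25 on the log2 scale (limma adjusted p = 0.885). The 2 that rose, named after their values were seen, were Hgfac (1.01 ± 0.35), a factor XII-like serine protease, and Klkb1, plasma prekallikrein (1.12 ± 0.44), whose entry is shared with Cyp4v3 in all tumors.

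**Figure D4:**
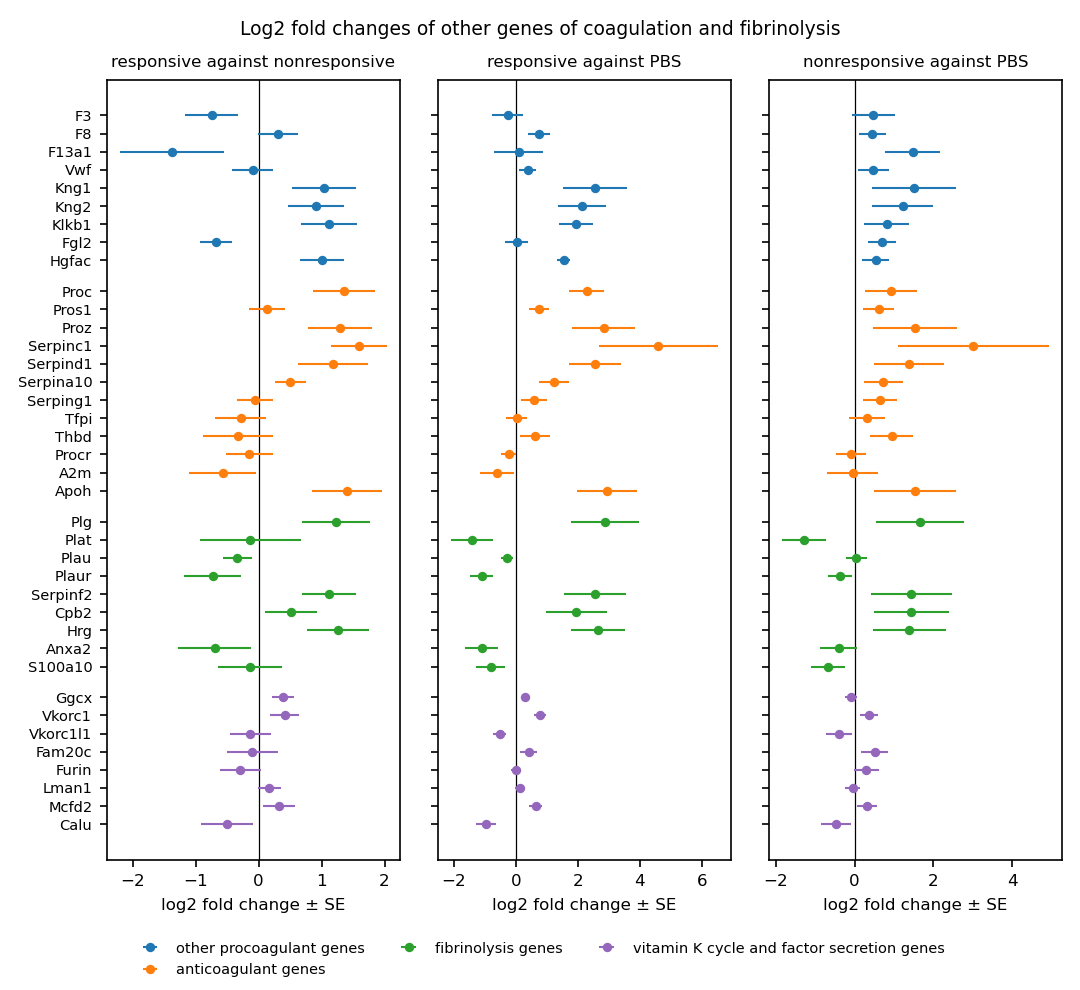
Log2 fold change of log2(FPKM + 1) with its SE (x) for other genes of coagulation and fibrinolysis (y, colored by list) in the 3 comparisons of groups. In responsive against PBS tumors Plg lies at 2.88 and Proc at 2.29, while Plaur at -1.10 lies left of 0.

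Of 13 anticoagulant genes 12 were tested. In responsive against nonresponsive tumors 7 of them had the higher mean, with a median of 0.32, and 4 rose and 0 fell at an unadjusted p under 0.05: Serpinc1, Proc, Proz and Apoh. Serpinc1, which encodes antithrombin, the main inhibitor of thrombin and factor Xa, was listed at 0 in PBS tumor 1 and measured 88.7 and 129 FPKM in the other PBS tumors, 289, 194 and 108 FPKM in nonresponsive and 752, 407 and 545 FPKM in responsive tumors. It differed by 1.59 ± 0.44 between the antibody-treated groups, which did not overlap (limma adjusted p = 0.885). Proc, protein C, which inactivates factor Va, measured 6.92, 21.2 and 29.0 FPKM, then 64.3, 23.6 and 21.6 FPKM, then 121, 62.5 and 77.9 FPKM, a difference of 1.36 ± 0.49. Apoh, a phospholipid-binding protein, measured 11.1 to 135, 88.2 to 329.9 and 301 to 619 FPKM, and Proz, protein Z, was listed at 0 in PBS tumor 1.

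Of the 12 anticoagulant genes 5 rose and 0 fell in responsive against PBS tumors. Serping1, the C1 inhibitor, which also blocks factor XIIa and is made by many cell types, measured 193 to 542 FPKM in PBS, 417 to 596 FPKM in nonresponsive and 413 to 585 FPKM in responsive tumors and overlapped between all groups. In nonresponsive against PBS tumors 0 of these 12 and 0 of the 9 other procoagulant genes had an unadjusted p under 0.05.

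Fibrinolysis genes split. In responsive against PBS tumors 3 of 10 rose, Plg, Serpinf2 and Hrg, and 2 fell, Plaur among them. Plg encodes plasminogen, the liver-made precursor of the fibrin-cutting protease plasmin, and measured 5.28, 61.0 and 98.6 FPKM in PBS, 199, 99.3 and 59.3 FPKM in nonresponsive and 378, 158 and 254 FPKM in responsive tumors. It differed by 2.88 ± 1.09 from PBS (limma adjusted p = 0.286). Serpinf2, the plasmin inhibitor alpha-2-antiplasmin, differed by 2.56 ± 1.00 and Hrg, histidine-rich glycoprotein, by 2.64 ± 0.87. Plaur, the cell-surface urokinase receptor, measured 124, 133 and 154 FPKM in PBS and 35.8, 83.3 and 83.9 FPKM in responsive tumors, and fell by 1.10 ± 0.37 on the log2 scale.

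The highest genes of the fibrinolysis list, S100a10 and Anxa2, which form a plasminogen receptor, measured 571 to 1074 and 457 to 967 FPKM in PBS, 308 to 738 and 318 to 836 FPKM in nonresponsive and 295 to 803 and 183 to 620.0 FPKM in responsive tumors. Both overlapped between all groups. In responsive against nonresponsive tumors 2 of the 10 fibrinolysis genes rose, Serpinf2 and Hrg, and 0 fell.

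Genes of the vitamin K cycle and of factor secretion went both ways. In responsive against PBS tumors 2 of 8 rose and 2 fell, and in responsive against nonresponsive tumors 0 of 8 did. Vkorc1, the warfarin-sensitive reductase, measured 66.8 to 89.5 FPKM in PBS, 85.4 to 126 FPKM in nonresponsive and 124 to 155 FPKM in responsive tumors, and rose by 0.78 ± 0.20 against PBS, with its entry shared with Prss53 in all tumors. Mcfd2, part of the cargo receptor for factors V and VIII, measured 49.8 to 70.2, 59.0 to 91.7 and 84.5 to 115 FPKM and rose by 0.64 ± 0.22. Calu, an inhibitor of the vitamin K-dependent carboxylation, measured 204 to 309.7, 109 to 244 and 87.2 to 173 FPKM and fell by 0.97 ± 0.32 on the log2 scale. The other that fell was Vkorc1l1 (-0.52 ± 0.20).

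Among 3 tested protease-activated receptors and 8 tested fibrinogen receptor and platelet genes, 0 had an unadjusted p under 0.05 in any of the 3 comparisons. F2r, the thrombin receptor PAR1, measured 15.2 to 29.3 FPKM in PBS, 20.8 to 39.2 FPKM in nonresponsive and 17.4 to 31.9 FPKM in responsive tumors. F2rl1 and F2rl3 stayed between 0.835 and 2.59 FPKM in all tumors. Pf4 of platelets measured 56.2 to 235, 129.9 to 604 and 151 to 402 FPKM, and Itgam and Itgb2, which form the leukocyte fibrinogen receptor Mac-1, 14.7 to 109.9 and 31.5 to 172 FPKM over all tumors.

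Transcription factors of the liver program were read because they act at promoters such as those printed above. In responsive against PBS tumors 6 of 12 rose at an unadjusted p under 0.05 and 0 fell. Hnf4a, a nuclear receptor that maintains the hepatocyte state, measured 12.6, 11.2 and 12.4 FPKM in PBS, 23.7, 12.8 and 12.4 FPKM in nonresponsive and 38.3, 24.7 and 39.0 FPKM in responsive tumors. It differed by 1.05 ± 0.33 between the antibody-treated groups (limma adjusted p = 0.885) and by 1.40 ± 0.22 from PBS (limma adjusted p = 0.219), without overlap in either. PBS tumor 1, the lowest in all 10 clotting genes, had the highest Hnf4a of its group. Cebpa measured 17.3 to 46.7, 32.5 to 92.1 and 53.4 to 123 FPKM and differed from PBS by 1.35 ± 0.47 in responsive tumors.

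Foxa1, Onecut1 and Nr1h4 also rose in responsive against PBS tumors. In responsive against nonresponsive tumors 2 of 12 rose, Hnf4a and Foxa1. Cebpb (119 to 747 FPKM over all tumors) and Stat3 (46.0 to 68.7 FPKM), which act in the interleukin-6 response, overlapped between all groups.

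**Figure D5:**
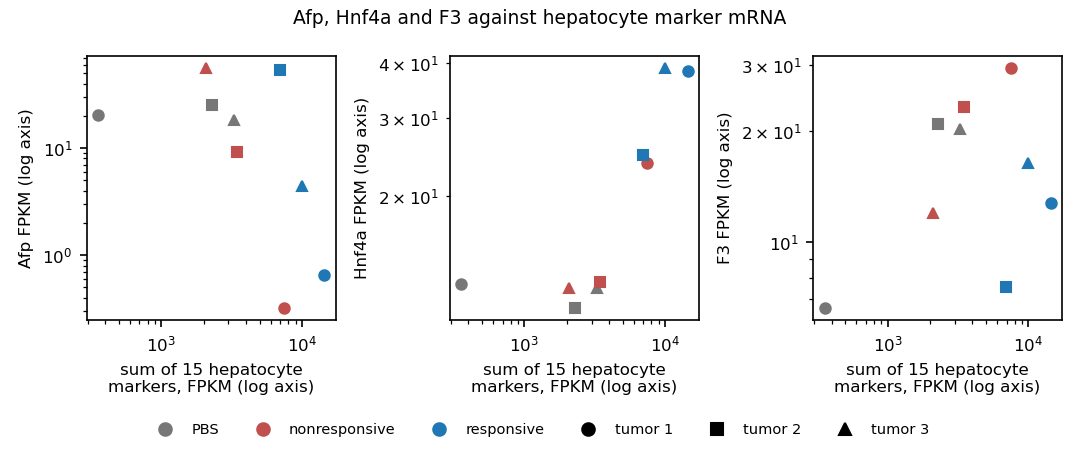
Afp, Hnf4a and F3 FPKM (y, log axes) against the summed FPKM of 15 hepatocyte markers (x, log axes) in 9 tumors, with color for the group and symbol for the tumor number. Nonresponsive tumor 1 and responsive tumor 1 have the lowest Afp, PBS tumor 1 has the lowest marker sum with Hnf4a at 12.6 FPKM, and F3 is not highest where the marker sum is.

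The interleukin-6 list of 14 genes holds Il6 itself and receptor genes as well as response genes. Of these 14, 0 rose in responsive against nonresponsive tumors and 1 fell, Il6ra, the interleukin-6 receptor (-0.57 ± 0.19). Against PBS 1 rose in responsive tumors, Fgl1 (2.15 ± 0.84), and 0 fell. Orm1 and Orm2 count as 2 genes of the list, though they share an entry in most tumors. Hp, haptoglobin, measured 145, 1309 and 2127 FPKM in PBS, 4152, 1995 and 1306 FPKM in nonresponsive and 5459, 1934 and 3631 FPKM in responsive tumors. It differed by 0.61 ± 0.62 between the antibody-treated groups. Between the same groups Fga and Fgg together differed by 0.99 ± 0.50, and Fgb, read from Ensembl and assembled entries, by 1.19 ± 0.56. Saa1 and Saa3, serum amyloid A genes that share an entry in several tumors, measured 114 to 3552 and 169 to 3552 FPKM in PBS, 2233 to 4536 and 2233 to 7154 FPKM in nonresponsive, and 2859 to 4099.9 and 2859 to 5583 FPKM in responsive tumors. The difference between these acute-phase genes and the fibrinogen chains was not tested.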

How the data were processed

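RNA of whole tumors was sequenced after TruSeq library preparation. Per the submitters' processing notes the tools were Bowtie2 2.2.4 and TopHat2 2.1.1 and the build mm8. The authors deposited 1 Cufflinks gene table per tumor, whose FPKM values and intervals are normalized for transcript length and mapped fragments. Transcripts were assembled in each tumor, so entries and the genes they name differ between tumors. The file coordinates did not match GRCm38 and were not used. The authors' Cuffdiff table of fold changes and p-values was not used.

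FPKM was summed over the entries naming a gene. Genes sharing all entries were joined into 1 row. 13 genes with a failed estimate were left out, 2 symbols absent from a table were taken as 0, and entries naming no gene (19.2% to 81.5% of summed FPKM per tumor) were left out. Groups came from the labels. Groups were compared on log2(FPKM + 1), pseudocount 1, with limma 3.58.1 in R 4.3.3 (trend, not robust) on the 6 tumors of a comparison, for genes at an FPKM of 1 or above in 3 or more of them, with Benjamini-Hochberg adjustment. The pseudocount makes fold changes of low genes too small. "Rose" and "fell" in the gene lists mean an unadjusted p under 0.05. Single values used exact two-sided permutation tests (Python 3.11.15, numpy 2.4.6, pandas 2.3.3, scipy 1.17.1; plots with matplotlib 3.10.9). The fit was tested on simulated data. Alternatives were pseudocount 0.1, no filter, a filter at FPKM 5, other scalings, all 9 tumors in 1 fit, a replicate block, joined loci, no trend, each tumor left out, and division by Alb. Named genes were all 10, the 3 highest of each list, and F3, F8, Vwf, Proc, Serpinc1, Plg, Hnf4a and Cebpa, with the 5 most correlated rows. Some genes of the lists count in the totals but are not reported here by name. Others were named after their values were seen. The 10 genes and the lists were chosen with earlier results of these data known. No 2 tumors were duplicates, with at most 0.00586% identical values.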

Additional observations from a re-analysis of the deposited data

How the results depend on the processing

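The 10 genes had 0 adjusted p values under 0.05 under every alternative. Relative to albumin the median over the 10 genes was -0.14 for responsive against nonresponsive tumors, a reversal from 1.16, 0.019 for responsive against PBS tumors and 0.12 for nonresponsive against PBS tumors, and the cause was not tested. The count of 4 genes with an unadjusted p under 0.05 in responsive against nonresponsive tumors became 2 with upper-quartile scaling, 0 with scaling to the named entries and 1 with all 9 tumors in 1 fit. Of all genes 507, 301 and 445 were higher at that p in these settings, against 561 in the main fit. Leaving out 1 tumor gave 0 to 8 of the 10 genes, with medians of 0.88 to 1.56, and 208 to 969 of all genes higher. In responsive against PBS tumors the count of 8 ranged from 1 to 9 and the median from 1.56 to 3.17, with 553 to 1258 of all genes higher. In nonresponsive against PBS tumors the count of 1 ranged from 1 to 2, with 80 to 708 of all genes higher. It was 0 with joined loci (199 genes higher), and the median ranged from 0.45, without PBS tumor 1, to 2.06. F7 in responsive against nonresponsive tumors reversed from -0.13 to 0.59 with loci joined, 0.11 without nonresponsive tumor 2, 0.44 without responsive tumor 2 and 0.26 without responsive tumor 3, within a range of -1.08 to 0.44 when 1 tumor was left out. Apart from F7, no single gene changed its direction under an alternative other than division by albumin.

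The replicate numbers did not pair the tumors, since same-numbered tumors correlated between -0.39 and 0.47 and 1 of 9 matched best with its own number. With the replicate number as a block 5, 6 and 1 of the 10 genes had an unadjusted p under 0.05 in the 3 comparisons, in the order above. Of all genes 741, 649 and 115 were higher at that p with the block. With 3 tumors a group and no counts, neither depth error nor small differences can be resolved.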
